A study of Mus musculus with 6 samples.

Results

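Cell cycle and replication genes were examined in islets of Ucn3 null and wild-type mice. The set is a fixed list of 36 gene symbols, chosen by name with earlier results of these data known. All 36 were found among the 21813 gene symbols of the deposited table. For each symbol the RefSeq transcript with the highest mean over the libraries stands for the gene. The islets came from 3 male mice lacking Ucn3, which encodes the beta cell peptide urocortin 3, and from 3 male wild-type littermates, all adults of 3 months. Each library is 1 animal, the islets hold mixed cell types, and neither the construction of the null allele nor the litter of each animal is given in the labels.

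A cell enters the cycle when D-type cyclins, bound to the kinases CDK4 and CDK6, free the E2F transcription factors from the retinoblastoma protein; cyclin E with CDK2 then carries it into DNA synthesis, and cyclins A and B with CDK1 carry it into mitosis. CDK inhibitors such as p21, p27 and the INK4 proteins hold these kinases in check. Adult mouse beta cells divide rarely, cyclin D2 and CDK4 are needed to build and keep beta cell mass, and p27 and p16 restrain their division.

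The promoters of these genes carry letters that differ by phase of the cycle, and 5 of them are shown for the genes that the results below turn on. Promoter windows of 300 bases (250 before to 50 after the transcription start, RefSeq, build GRCm38.p6) were found for 30 of the 36 genes. In the lines below, which read 5′ to 3′, capitals mark the TTTGAA core of the cell cycle homology region and the E2F cores TTTGGCGC, TTTCGCGC, TTTCCCGC and TTTGCCGC, each on either strand, overlaps included. The first 2 genes act in mitosis and shared their highest library, wild type replicate 3, and their lowest, Ucn3 null replicate 1. Mcm6, Mcm7 and Pole3 act in DNA replication and did not overlap between the genotypes. Rrm1 did not overlap either, and its window, which is not shown, holds neither TTTGAA nor an E2F core. Mcm7 has 2 windows, of which the one with E2F cores is shown.
Cdk1, chr10:69352863-69353162, minus strand: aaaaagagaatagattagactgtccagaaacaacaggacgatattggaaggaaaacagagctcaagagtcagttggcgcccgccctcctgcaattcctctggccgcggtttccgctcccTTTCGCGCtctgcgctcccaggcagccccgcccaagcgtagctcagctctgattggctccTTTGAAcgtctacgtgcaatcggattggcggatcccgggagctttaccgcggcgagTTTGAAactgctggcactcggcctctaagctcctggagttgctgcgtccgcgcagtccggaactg
Top2a, chr11:99024140-99024439, minus strand: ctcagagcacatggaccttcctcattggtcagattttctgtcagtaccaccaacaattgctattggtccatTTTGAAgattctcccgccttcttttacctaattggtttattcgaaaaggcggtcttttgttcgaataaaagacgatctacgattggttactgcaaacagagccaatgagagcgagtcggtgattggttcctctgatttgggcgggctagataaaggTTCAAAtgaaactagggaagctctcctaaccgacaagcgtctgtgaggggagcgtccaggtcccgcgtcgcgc
Mcm6, chr1:128359656-128359955, minus strand: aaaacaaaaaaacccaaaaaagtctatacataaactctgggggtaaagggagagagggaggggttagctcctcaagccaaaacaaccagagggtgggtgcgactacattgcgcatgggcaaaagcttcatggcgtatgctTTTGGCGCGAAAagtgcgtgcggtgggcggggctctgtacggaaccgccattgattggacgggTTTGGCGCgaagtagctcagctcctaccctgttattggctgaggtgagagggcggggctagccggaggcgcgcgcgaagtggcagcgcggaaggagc
Mcm7, chr5:138171834-138172133, minus strand: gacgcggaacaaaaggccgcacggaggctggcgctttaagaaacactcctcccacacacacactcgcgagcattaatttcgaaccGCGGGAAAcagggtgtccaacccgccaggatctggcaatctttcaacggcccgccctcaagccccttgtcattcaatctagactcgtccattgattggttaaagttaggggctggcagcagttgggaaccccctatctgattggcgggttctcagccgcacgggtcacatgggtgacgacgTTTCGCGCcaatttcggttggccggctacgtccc
Pole3, chr4:62524965-62525264, minus strand: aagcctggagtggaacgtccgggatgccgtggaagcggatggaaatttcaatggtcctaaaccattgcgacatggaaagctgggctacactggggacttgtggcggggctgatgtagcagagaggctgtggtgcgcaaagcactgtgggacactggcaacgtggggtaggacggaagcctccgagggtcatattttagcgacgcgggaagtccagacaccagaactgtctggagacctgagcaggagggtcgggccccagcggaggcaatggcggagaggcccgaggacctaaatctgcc
TTTGAA stood in the windows of 7 of the 10 mitosis genes found and in 1 of the 10 replication genes, against 20.2% of all 27025 genes with a window. An E2F core stood in 1 of 10 mitosis genes, in 4 of 10 replication genes and in 4 of the 5 MCM genes found, against 2.6% of all genes. The window of Mcm6 has 3 E2F matches, of which 2 overlap each other. The Pole3 window holds none of these letters. CCAAT, on either strand, stood in 9 of the 10 mitosis genes and 8 of the 10 replication genes, against 41.1% of all genes. These are matches of letters, not measured binding.

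Levels are given as RPKM, reads per kilobase of transcript scaled for sequencing depth. From the spacing of low RPKM values, libraries held between an estimated 42500000 and 51870000 reads. Ucn3 stood at 1.61, 1.63 and 1.80 RPKM in Ucn3 null islets, against 136, 157 and 155 RPKM in wild-type islets, so the libraries matched their labels. Markers of beta, alpha and delta cells were present in all 6 libraries. Ucn3 null replicate 1 was the lowest of the 6 libraries for 34.7% of the 12652 tested genes, which average at least 1 RPKM. Among the 4275 genes averaging 0.1 to 1 RPKM it was the lowest for 24.5%. It was the lowest for 23 of the 36 cell cycle genes, which fall in both ranges.

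The 36 genes spanned a wide range of levels, and those that mark dividing cells were near the bottom of it. Tests were run on the 20 genes that averaged at least 1 RPKM over the 6 libraries; the other 16 are given as values. No gene of the set passed an adjusted p of 0.05 in limma, a linear model fitted to log2(RPKM + 1) of all 12652 tested genes, where 0.0158% of genes passed. At an unadjusted p under 0.05 limma counted 4 of the 20, all lower in Ucn3 null islets (Pole3, Mcm6, Ccne2 and Cdkn1b), where 7.9% of all tested genes were called in that direction; 0 of the 20 were higher, where 1.46% of tested genes were. Without Ucn3 null replicate 2 the count was 2 (Pole3 and Mcm6), and without wild type replicate 1 it was 6. Limma-voom on reads estimated from the RPKM values also passed 0 of the 20 after adjustment. In 5 of the 20 genes every Ucn3 null library lay below every wild-type library, against 13.2% of tested genes, and in 0 of the 20 the reverse held, against 1.9% of tested genes. The median log2 difference was -0.12 over the 20 genes and -0.03 over all tested genes, and 19 of the 20 had a difference below 0, against 61.7% of tested genes. Of the 20, 15 were below 0 without Ucn3 null replicate 1 and 13 with the level of acinar markers as a covariate. The share of all tested genes below 0 was not computed in those fits. Of the 19 tested acinar markers 18 were higher in Ucn3 null islets at an unadjusted limma p under 0.05, against 1.46% of tested genes. That covariate is thus partly tied to genotype, and their effects cannot be fully separated in 6 libraries. In these bulk samples, fewer cells of a type and less RNA per cell cannot be told apart.

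**Figure D1:**
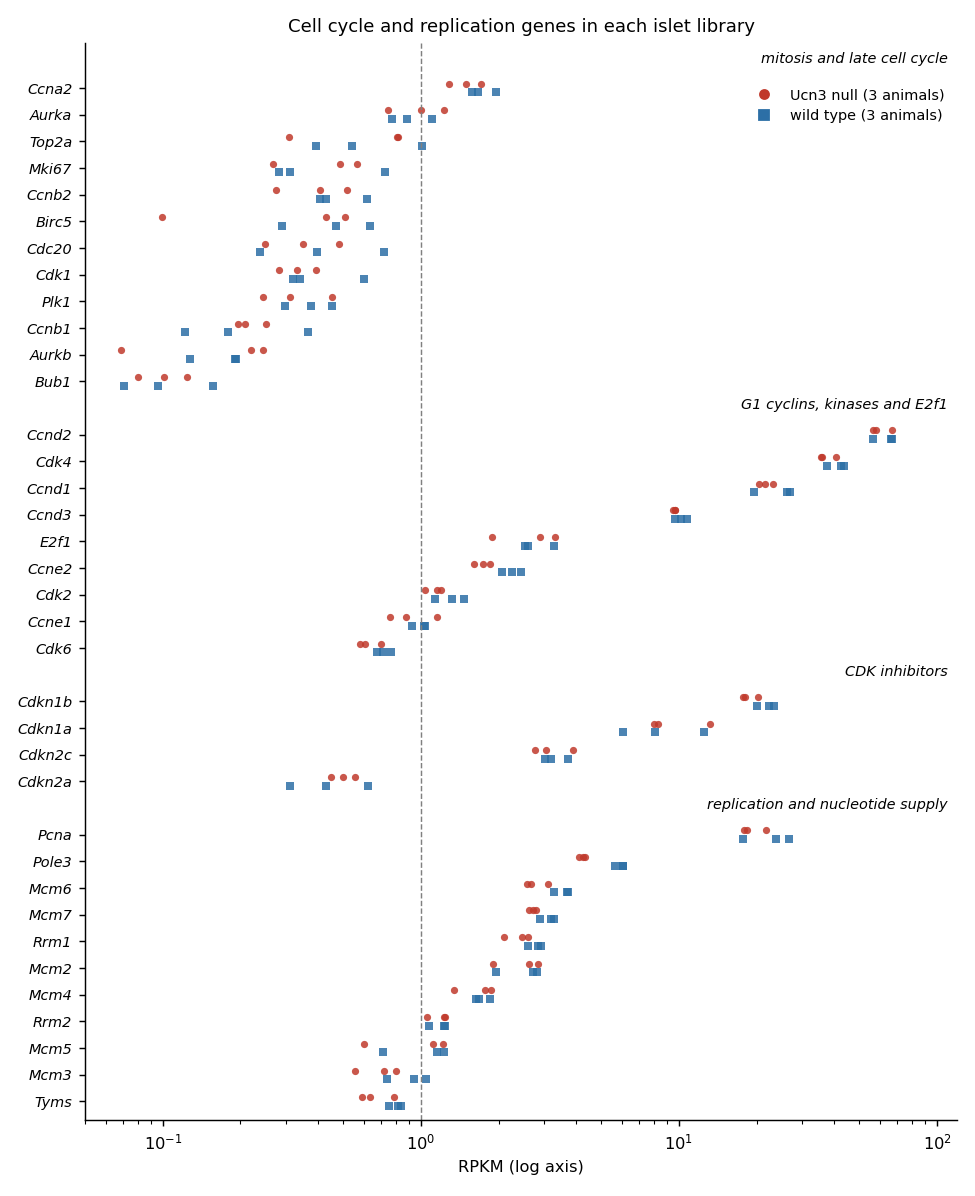
RPKM of each of the 36 genes in each library (log axis), by role and ordered by mean level within a role, with Ucn3 null libraries as circles and wild-type libraries as squares; the dashed line is the 1 RPKM that a gene had to average to be tested. Most mitosis genes lie below the line, Ccnd2 and Cdk4 are the highest, and the circles and squares separate for Pole3, Mcm6, Mcm7, Rrm1 and Ccne2.

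Mitosis genes were scarce in islets of both genotypes. Of 12 such genes, Ccna2, which encodes the cyclin of S phase and mitotic entry, was the only one to average 1 RPKM. It stood at 1.29, 1.49 and 1.72 RPKM in Ucn3 null islets, against 1.57, 1.67 and 1.96 RPKM in wild-type islets. The groups overlapped, and the log2 difference was -0.13 (95% confidence interval -0.37 to 0.10, limma adjusted p = 0.72). Mki67, the gene of the Ki-67 antigen by which dividing cells are stained, stood at 0.269, 0.487 and 0.567 RPKM in Ucn3 null islets, against 0.283, 0.312 and 0.728 RPKM in wild-type islets. Its mean was 0.441 ± 0.155 RPKM in Ucn3 null islets and 0.441 ± 0.249 RPKM in wild-type islets (SD, n = 3 each), so the genotypes had the same mean while single animals differed by up to 2.71-fold. Top2a, the topoisomerase that untangles replicated chromosomes, stood at 0.307, 0.815 and 0.805 RPKM in Ucn3 null islets, against 0.392, 0.542 and 1.01 RPKM in wild-type islets. Aurka, a kinase of the spindle poles, stood at 0.748, 1.23 and 1.005 RPKM in Ucn3 null islets, against 0.776, 0.883 and 1.10 RPKM in wild-type islets. Both overlapped between the genotypes from end to end.

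The other 8 mitosis genes are the kinase Cdk1, its cyclins Ccnb1 and Ccnb2, the checkpoint kinase Bub1, the kinases Aurkb and Plk1, the survivin gene Birc5 and the anaphase activator Cdc20. Their means lay between 0.102 RPKM (Bub1) and 0.399 RPKM (Ccnb2) in Ucn3 null islets and between 0.108 RPKM (Bub1) and 0.483 RPKM (Ccnb2) in wild-type islets, and the groups overlapped for each. The estimated reads behind a value ran from 5 (Birc5 in Ucn3 null replicate 1) to 354 (Mki67 in wild type replicate 3), so counting error is large for the scarcest. Mki67 rested on 140, 235 and 265 estimated reads in Ucn3 null islets and on 121, 151 and 354 in wild-type islets.

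Most mitosis genes had the same highest and the same lowest library, while the order in between varied by gene. Wild type replicate 3 was the highest library for 9 of the 12 genes and Ucn3 null replicate 2 for the other 3. Ucn3 null replicate 1 was the lowest for 9 and wild type replicate 1 for the other 3. Among all 4275 genes averaging 0.1 to 1 RPKM, wild type replicate 3 was the highest library for 15.0% and Ucn3 null replicate 1 the lowest for 24.5%. The RPKM of the 12 genes summed to 4.12, 6.65 and 6.78 in Ucn3 null islets, against 4.98, 5.87 and 8.47 in wild-type islets, and the groups overlapped. The median ratio of the highest to the lowest library was 2.48 for the mitosis genes, 1.38 for the G1 genes and 1.44 for the replication genes. It was 2.08 over the 4034 of the 4275 low genes that were above 0 in every library. Over the 12617 tested genes above 0 in every library it was 1.29. Beside this pattern, markers of B and T cells summed to 6.80, 14.9 and 15.3 RPKM in Ucn3 null islets, against 22.2, 15.1 and 9.63 RPKM in wild-type islets. Macrophage and dendritic markers summed to 142, 199 and 169 RPKM in Ucn3 null islets, against 261, 198 and 152 RPKM in wild-type islets. Both sums were highest in wild type replicate 1 and lowest in Ucn3 null replicate 1. The part of immune cells in the mitosis values was not tested.

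**Figure D2:**
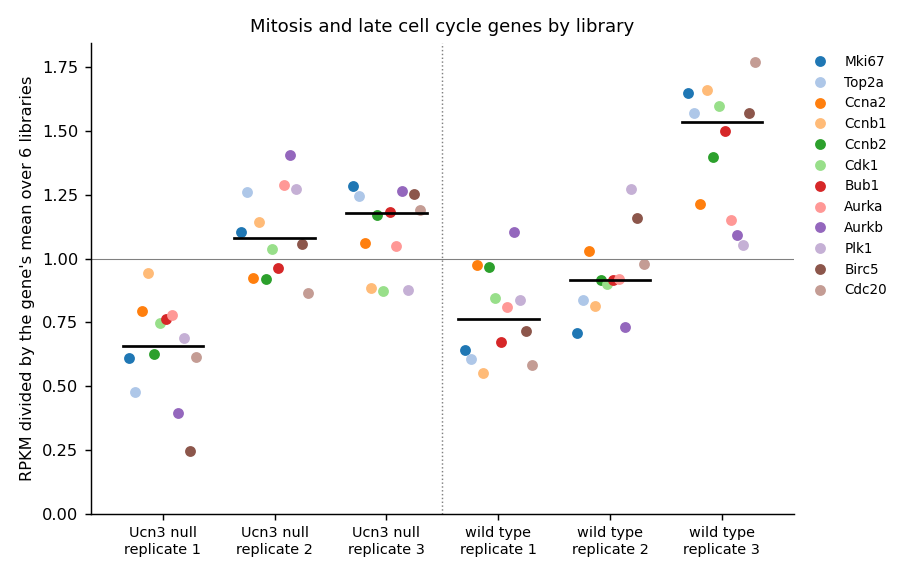
RPKM of the 12 mitosis genes in each library divided by the gene's mean over the 6 libraries; each colour is a gene, and the black bar is the median of the 12 genes. The medians are 0.656, 1.08 and 1.18 in the Ucn3 null libraries and 0.762, 0.916 and 1.53 in the wild-type libraries, so the genotypes overlap and animals within each differ.

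Genes that drive the G1 phase included the most abundant of the set. Ccnd2, the gene of cyclin D2, was the highest of all 36, at 66.9, 57.9 and 56.3 RPKM in Ucn3 null islets, against 66.5, 56.2 and 66.8 RPKM in wild-type islets. Cdk4, the gene of the kinase that cyclin D2 activates, stood at 35.5, 35.96 and 40.4 RPKM in Ucn3 null islets, against 37.5, 42.5 and 43.8 RPKM in wild-type islets. Ccnd1, which encodes cyclin D1, stood at 20.4, 21.6 and 23.2 RPKM in Ucn3 null islets, against 19.5, 27.0 and 26.3 RPKM in wild-type islets. All 3 overlapped between the genotypes. Ccnd3, of cyclin D3, stood at 9.50, 9.62 and 9.68 RPKM in Ucn3 null islets, against 10.8, 9.64 and 10.2 RPKM in wild-type islets, and overlapped narrowly. The log2 differences were -0.06 for Ccnd2 (95% confidence interval -0.31 to 0.18), -0.14 for Cdk4 (-0.35 to 0.07), -0.14 for Ccnd1 (-0.43 to 0.15) and -0.08 for Ccnd3 (-0.23 to 0.07), with limma adjusted p between 0.66 and 0.89. With acinar markers as a covariate the log2 difference of Ccnd1 was 0.13 and that of Cdk4 0.01. In the same fit Ccnd2 was at -0.27 (SE 0.10, limma adjusted p = 0.97) and Ccnd3 at -0.14. Ccnd2 was then 1 of the 3 genes of the set at an unadjusted limma p under 0.05, with Ccne2 and Pole3. Ccnd1 was at -0.28 without wild type replicate 1, -0.06 without wild type replicate 2 and -0.08 without wild type replicate 3. The order Ccnd2, Cdk4, Ccnd1, Ccnd3 held in every library, and RPKM compares them per length.

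Ccne2, which encodes a cyclin E, the partner of CDK2 at the start of DNA synthesis, was lower in every Ucn3 null library than in every wild-type library. It stood at 1.85, 1.602 and 1.73 RPKM in Ucn3 null islets, against 2.25, 2.06 and 2.44 RPKM in wild-type islets. The log2 difference was -0.25 (SE 0.08, 95% confidence interval -0.44 to -0.06), with a limma adjusted p of 0.49 that did not pass. Its paralog Ccne1 averaged 0.930 ± 0.204 RPKM in Ucn3 null islets and 0.997 ± 0.0629 RPKM in wild-type islets (SD, n = 3 each), with overlap. The gene Ints8 overlaps Ccne2 in the annotation, and the library kit does not mark strand, so reads of the pair cannot be told apart where they overlap. Ints8 itself stood at 6.71 ± 0.253 RPKM in Ucn3 null islets and 7.54 ± 0.397 RPKM in wild-type islets (SD, n = 3 each), without overlap between the groups and in the same direction. The same limit holds for Mcm7 with Ap4m1, Cdk4 with Tspan31, Ccna2 with Exosc9 and Ccnd3 with Bysl. Ccnd1, Cdk2, E2f1, Aurka and Cdc20 also overlap a coding gene. Ap4m1 averaged 5.05 ± 0.673 RPKM in Ucn3 null islets and 4.81 ± 0.598 RPKM in wild-type islets (SD, n = 3 each), with overlap. Tspan31, Exosc9 and Bysl had log2 differences of -0.19, -0.08 and -0.04, with overlapping groups and in the same direction as Cdk4, Ccna2 and Ccnd3.

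The remaining G1 genes overlapped between the genotypes. Cdk2 averaged 1.13 ± 0.0850 RPKM in Ucn3 null islets and 1.31 ± 0.171 RPKM in wild-type islets (SD, n = 3 each; log2 difference -0.12, 95% confidence interval -0.33 to 0.10). E2f1, an activator of S phase genes, averaged 2.70 ± 0.733 RPKM in Ucn3 null islets and 2.81 ± 0.413 RPKM in wild-type islets (SD, n = 3 each; log2 difference -0.06, -0.42 to 0.31). Cdk6, the other kinase partner of the D cyclins, averaged 0.629 ± 0.0628 RPKM in Ucn3 null islets and 0.719 ± 0.0468 RPKM in wild-type islets (SD, n = 3 each) and was not tested. None of the 7 tested G1 genes passed; their median log2 difference was -0.12, and 1 of the 7 did not overlap, a share near the 13.2% of all tested genes.

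Of the 4 CDK inhibitors in the set, 3 were well expressed and Cdkn2a was scarce. Cdkn1b, which encodes p27, the main brake on cyclin E and CDK2, stood at 17.95, 17.7 and 20.3 RPKM in Ucn3 null islets, against 20.1, 22.3 and 23.4 RPKM in wild-type islets. The lowest wild-type library fell just below the highest Ucn3 null library, and the log2 difference was -0.22 (SE 0.09, 95% confidence interval -0.42 to -0.02, limma adjusted p = 0.50). With the acinar covariate, which was itself higher on average in Ucn3 null islets, it was -0.09 (SE 0.11), no longer at an unadjusted p under 0.05. Cdkn1a, the gene of p21, which p53 induces, stood at 13.2, 8.01 and 8.30 RPKM in Ucn3 null islets, against 12.4, 8.11 and 6.06 RPKM in wild-type islets. It was the 1 tested gene of the set with a positive difference, 0.15, but the interval ran from -0.45 to 0.75 and 1 animal of each genotype stood well above the other two. The difference was -0.06 without Ucn3 null replicate 1, -0.06 without wild type replicate 3 and 0.40 without wild type replicate 1. Cdkn2c, of the INK4 protein p18, stood at 3.88, 2.78 and 3.07 RPKM in Ucn3 null islets, against 3.71, 3.02 and 3.18 RPKM in wild-type islets, so the wild-type values fell within the Ucn3 null range. Cdkn2a, the shared locus of the inhibitor p16 and of the p53 activator ARF, which rises in islets with age, stood at 0.498, 0.448 and 0.555 RPKM in Ucn3 null islets, against 0.429, 0.626 and 0.311 RPKM in wild-type islets. These values are of its transcript with the higher mean. The labels do not say whether that transcript encodes p16 or ARF, so the values should not be read as p16. At 13 to 27 estimated reads per library, a difference in Cdkn2a smaller than this spread was not detectable.

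DNA replication genes held the lowest values of p of the set. Pole3, which encodes a small histone-fold subunit of DNA polymerase epsilon that is also part of the CHRAC chromatin remodeler, stood at 4.26, 4.33 and 4.11 RPKM in Ucn3 null islets, against 5.63, 6.09 and 6.05 RPKM in wild-type islets. The groups stood apart; the wild-type mean was 1.40 times the Ucn3 null mean, with a log2 difference of -0.40 (SE 0.06, 95% confidence interval -0.55 to -0.26). The limma adjusted p was 0.30 and did not pass; over the 14 alternatives it ran from 0.26 to 0.97 while the difference stayed between -0.49 and -0.36. Pole4, the partner of Pole3 in the polymerase, was also lower in each Ucn3 null library, at 2.34, 2.18 and 2.82 RPKM, against 3.40, 3.10 and 3.61 RPKM in wild-type islets (log2 difference -0.34, SE 0.09, limma adjusted p = 0.49). Chrac1, the Pole3 partner in the remodeler, was chosen after its values were seen; it averaged 13.8 ± 1.67 RPKM in Ucn3 null islets and 15.5 ± 2.03 RPKM in wild-type islets (SD, n = 3 each), with overlap.

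The MCM genes encode the 6 subunits of the helicase that opens DNA at replication origins; 0 of the 5 tested passed, and differences between members were not tested. Mcm6 stood at 2.58, 2.68 and 3.11 RPKM in Ucn3 null islets, against 3.29, 3.70 and 3.70 RPKM in wild-type islets, without overlap (log2 difference -0.27, SE 0.08, 95% confidence interval -0.46 to -0.08, limma adjusted p = 0.49). Mcm7 stood at 2.62, 2.78 and 2.71 RPKM in Ucn3 null islets, against 2.89, 3.28 and 3.21 RPKM in wild-type islets, also without overlap (log2 difference -0.16, 95% confidence interval -0.32 to 0.01). With the acinar markers as a covariate these differences were -0.14 for Mcm6 and -0.08 for Mcm7. Mcm2, at 1.91, 2.83 and 2.62 RPKM in Ucn3 null islets, against 1.96, 2.82 and 2.72 RPKM in wild-type islets, had 1 low animal in each genotype and nearly the same values otherwise. Mcm5 had the same arrangement, at 0.602, 1.12 and 1.22 RPKM in Ucn3 null islets, against 0.713, 1.23 and 1.151 RPKM in wild-type islets. In both genes the low animals were Ucn3 null replicate 1 and wild type replicate 1, which also held the lowest Top2a, Mki67 and Cdc20. Mcm4 averaged 1.66 ± 0.282 RPKM in Ucn3 null islets and 1.72 ± 0.112 RPKM in wild-type islets, and Mcm3, not tested, 0.691 ± 0.124 and 0.907 ± 0.154 RPKM in Ucn3 null and wild-type islets (SD, n = 3 each). Over all 6 libraries the mean level, in RPKM, ran from 0.799 for Mcm3 to 3.17 for Mcm6.

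Pcna, which encodes the sliding clamp of DNA polymerases and serves repair as well, was the most abundant replication gene. It stood at 17.9, 18.4 and 21.8 RPKM in Ucn3 null islets, against 26.6, 23.7 and 17.7 RPKM in wild-type islets. Wild type replicate 3, the highest library for most mitosis genes, was the lowest for Pcna, and the log2 difference of -0.20 had an interval from -0.55 to 0.14. The difference was -0.08 without wild type replicate 1 and -0.36 without wild type replicate 3. The annotation names 2 Pcna pseudogenes, with which reads could be shared. Rrm1, the large subunit of ribonucleotide reductase, which makes deoxynucleotides, stood at 2.10, 2.46 and 2.60 RPKM in Ucn3 null islets, against 2.61, 2.92 and 2.83 RPKM in wild-type islets. The groups met almost edge to edge (log2 difference -0.16, 95% confidence interval -0.36 to 0.03), and the difference was -0.10 without Ucn3 null replicate 1 and -0.04 with the acinar covariate. Rrm2, the small subunit that is made in S phase, averaged 1.18 ± 0.102 RPKM in Ucn3 null islets and 1.18 ± 0.0911 RPKM in wild-type islets (SD, n = 3 each; log2 difference -0.0027, interval -0.21 to 0.20). Tyms, the thymidylate synthase gene, averaged 0.672 ± 0.105 RPKM in Ucn3 null islets and 0.801 ± 0.0449 RPKM in wild-type islets (SD, n = 3 each), with overlap. Of the 9 tested replication genes 0 passed and 4 did not overlap, against 13.2% of all tested genes, and their median log2 difference was -0.16, against -0.03 over all tested genes. Without Ucn3 null replicate 1 the median was -0.10, with 5 of 9 below 0, against a median of -0.0092 over all tested genes in that fit. With the acinar covariate it was -0.04, with 5 of 9 below 0, against -0.02 over all tested genes.

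**Figure D3:**
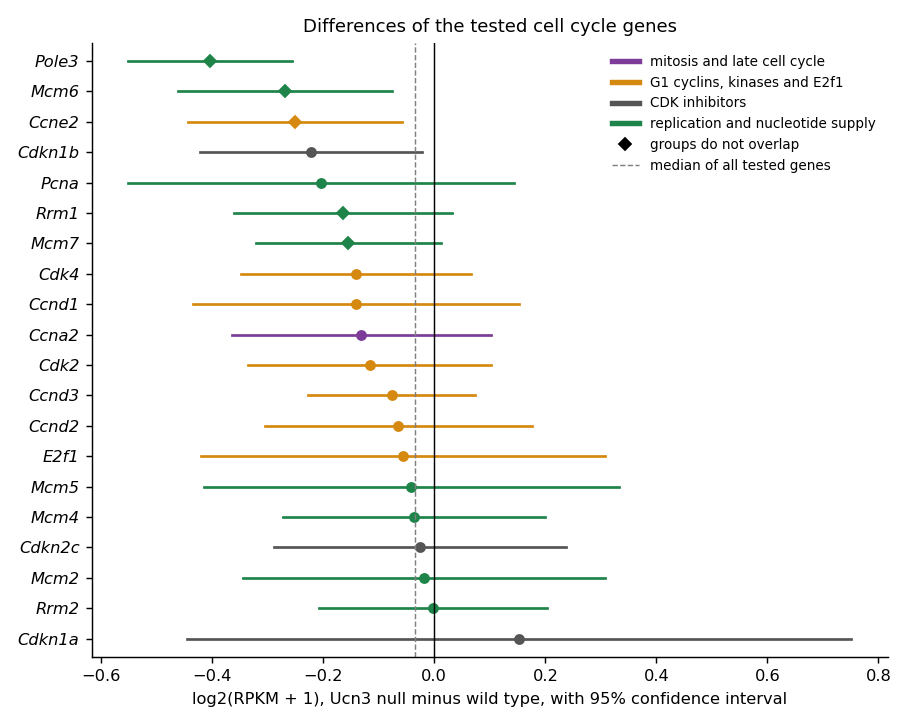
Difference in log2(RPKM + 1) of each tested gene, Ucn3 null minus wild type, with its 95% confidence interval; colours give the role, diamonds mark genes whose groups do not overlap, and the dashed line is the median of all tested genes. Pole3 has the most negative value, -0.40, and Cdkn1a the 1 positive value, 0.15, with the widest interval.

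Other genes of the same pathways were read from lists that do not hold the 36. Of 30 tested replication genes 0 passed; 28 had a log2 difference below 0, the median was -0.10, and 7 (23.3%) did not overlap, all lower in Ucn3 null islets (Orc3, Orc5, Orc6, Pola1, Prim2, Pole4 and Lig1). Over all tested genes, 61.7% were below 0, the median was -0.03, and 13.2% did not overlap with Ucn3 null islets lower. The mean log2(RPKM + 1) of the 30 genes was 2.20, 2.26 and 2.38 in Ucn3 null islets, against 2.36, 2.40 and 2.43 in wild-type islets. Ucn3 null replicate 3 thus lay within the wild-type range. Over all tested genes that mean was 2.99, 3.01 and 3.09 in Ucn3 null islets, against 3.09, 3.03 and 3.07 in wild-type islets. Orc5, a subunit of the complex that marks replication origins, had the smallest p among them, at 19.7, 17.4 and 20.2 RPKM in Ucn3 null islets, against 22.9, 24.1 and 23.8 RPKM in wild-type islets (log2 difference -0.29, SE 0.08, limma adjusted p = 0.49). Of 11 tested mitosis genes outside the set 0 passed, all 11 had a difference below 0, against 61.7% of tested genes, and the median was -0.11; the smallest p belonged to the checkpoint gene Bub3, with a log2 difference of -0.18 and overlapping groups, and then to the spindle motor gene Kif11, with -0.11 and no overlap. The mean log2(RPKM + 1) of these 11 mitosis genes was 1.98, 2.07 and 2.19 in Ucn3 null islets, against 2.17, 2.15 and 2.21 in wild-type islets. Here too Ucn3 null replicate 3 lay within the wild-type range. Of 19 tested genes of G1 to S control 0 passed and the median was -0.04, close to that of all tested genes. Mnat1, of the CDK-activating kinase, and Fbxw7, of a ligase that degrades cyclin E, had log2 differences of -0.14 each, without overlap.

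Among 6 tested CDK inhibitors and their regulators outside the set 0 passed. Cdkn2d and Cdkn2b, both of the INK4 family, had log2 differences of -0.17 each, with overlapping groups, and the median of the list was -0.11. The p53 pathway list, to which the inducer of Cdkn1a belongs, had 15 tested genes, of which 0 passed, 7 were below 0 and 8 above, with a median of 0.01. Perp, a membrane protein gene that p53 induces, stood at 2.88, 2.45 and 2.53 RPKM in Ucn3 null islets, against 3.76, 3.96 and 2.93 RPKM in wild-type islets (log2 difference -0.33, SE 0.10, limma adjusted p = 0.49). Pmaip1, of the cell death protein NOXA, stood at 0.752, 0.555 and 0.880 RPKM in Ucn3 null islets, against 2.04, 1.06 and 0.929 RPKM in wild-type islets, without overlap (log2 difference -0.41, limma adjusted p = 0.53).

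**Figure D4:**
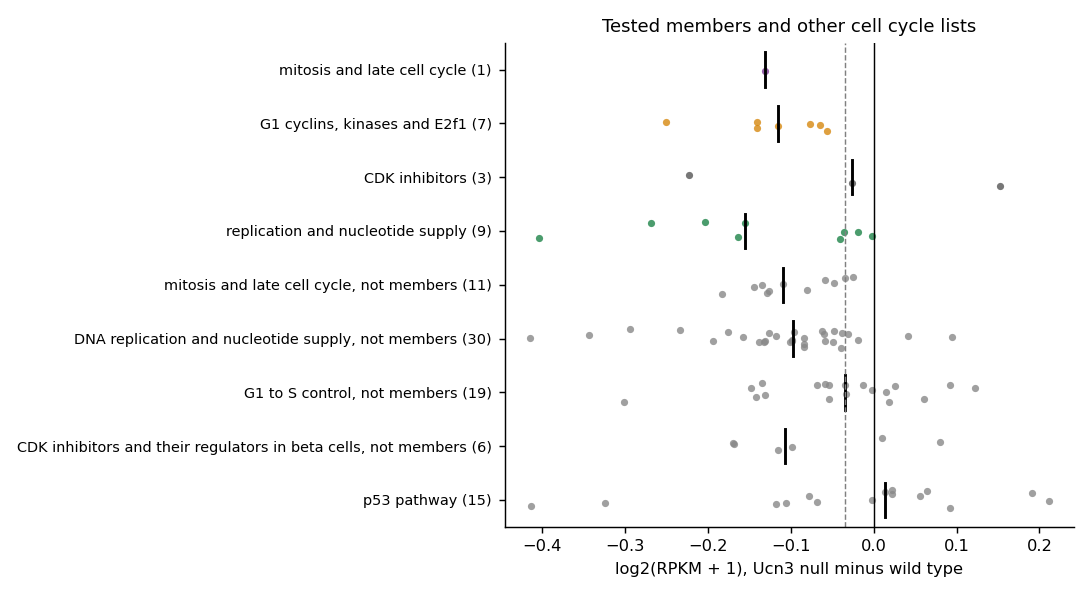
Log2 difference, Ucn3 null minus wild type, of each tested gene in the 4 roles of the set (coloured) and in the 5 other lists (grey), with the number tested in brackets, the list median as a black bar and the median of all tested genes as a dashed line. Replication genes, within and outside the set, lie mostly left of 0, and p53 pathway genes lie on both sides.

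Markers of other cell types differed between the genotypes or between single libraries in the same samples. The 20 acinar markers summed to 24420, 14120 and 4956 RPKM in Ucn3 null islets, against 6736, 558 and 2578 RPKM in wild-type islets, and Ucn3 null replicate 1, the lowest library for most cell cycle genes, was the highest here. The 4 delta cell markers summed to 683, 859 and 1083 RPKM in Ucn3 null islets, against 1747, 2191 and 2405 RPKM in wild-type islets, without overlap. The 12 ductal markers summed to 363, 292 and 279 RPKM in Ucn3 null islets, against 423, 420 and 322 RPKM in wild-type islets. Endothelial markers, 10 in all, lay between 97.6 and 109 RPKM in Ucn3 null islets and between 97.9 and 108 RPKM in wild-type islets, and stellate and fibroblast markers, 9 in all, between 15.6 and 18.6 RPKM and between 13.2 and 25.2 RPKM. The 7 red blood cell markers summed to 102, 444 and 167 RPKM in Ucn3 null islets, against 541, 588 and 111 RPKM in wild-type islets, lowest in Ucn3 null replicate 1 and wild type replicate 3. Alpha cell markers, 6 in all, summed to 6323, 8191 and 10590 RPKM in Ucn3 null islets, against 8825, 8327 and 9283 RPKM in wild-type islets. No marker of these lists was at 0 in all libraries. The part of delta, alpha, ductal, red blood and immune cell content in the cell cycle values was not tested.

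**Figure D5:**
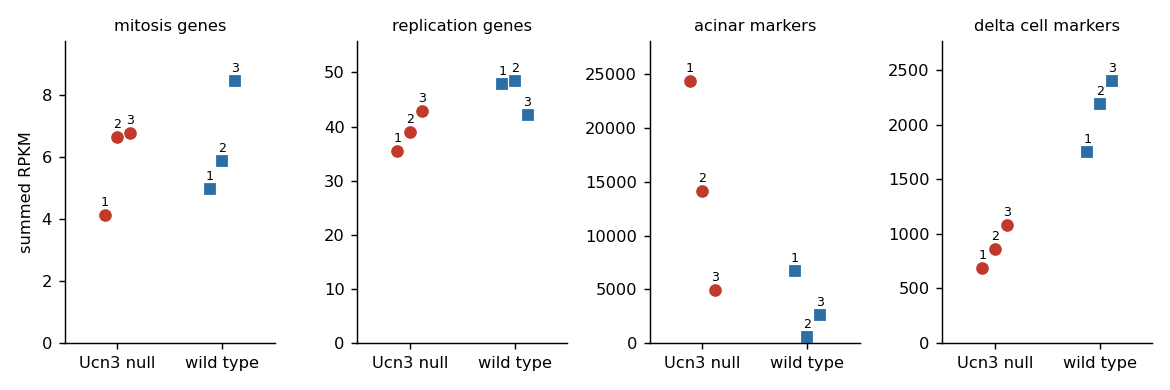
Summed RPKM of the 12 mitosis genes, the 11 replication genes, the 20 acinar markers and the 4 delta cell markers in each library, with the replicate number above each point; circles are Ucn3 null and squares wild type. The mitosis and replication sums overlap between the genotypes, as do the acinar sums, while the delta cell sums do not.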

How the data were processed

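Islet RNA of 6 male mice, 3 of each genotype, went into TruSeq libraries, per the labels' protocols. The protocol for extraction mentions a cell sort, while the labels call the islets mixed. The authors deposited 1 table of RPKM values by RefSeq transcript; the submitters' processing notes name STAR, bedtools, DESeq and mm9 without roles or versions, and the counting of shared reads is not stated there. Of 28129 rows 28011 were used, since 117 were blank and 1 held text where a number belongs. RPKM values are not counts, so log2(RPKM + 1) was fitted with limma 3.58.1 (R 4.3.3, mean trend, no block, Benjamini-Hochberg adjustment over all 12652 genes, two-sided). Fold changes on this scale understate the change of low genes. Replicates were numbered in accession order. Each animal is 1 sample.

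The 36 genes and all lists were chosen with earlier results of these data known. The rule for named genes gives values in every library for genes whose groups did not overlap and, in each role, for up to 4 with the highest mean and up to 2 with the smallest p; of each pathway list it names up to 2 with the smallest p. Mcm2, Mcm5, Orc3, Orc6, Pola1, Prim2, Lig1 and the neighbours and partners Ints8, Ap4m1, Tspan31, Exosc9, Bysl and Chrac1 are not covered by that rule. They were picked once their values had been seen. The alternatives were another pseudocount, other filters, median-ratio scaling, no mean trend, the mean over transcripts, an acinar covariate, limma-voom and each library left out. Depth and reads per gene were estimated from the steps of low RPKM values, with transcript lengths from GENCODE M21 for 97.5% of rows; depending on the library, 77.5% to 79.0% of the low values came within 0.1 of a whole read, so reads are estimates. Of the 36 genes 10 overlap another coding gene in the RefSeq annotation of GRCm38.p6, and 5 have a named pseudogene; reads could be shared there. That annotation is of another build than the table and was used for neighbours and promoter sequences; no RPKM value was placed by its coordinates. The fit was checked on simulated data with changes larger than any in this set and no shift shared by a library. That check does not bear on differences as small as those given here. Figures were drawn with matplotlib 3.10.9.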

Additional observations from a re-analysis of the deposited data

How the results depend on the processing

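None of the 20 tested genes passed an adjusted p of 0.05 under any of 14 alternatives, where the smallest adjusted p was 0.26, and their median log2 difference stayed below 0, between -0.18 and -0.08. Of 276 single-gene values under the alternatives 250 kept their sign. The number of genes that passed among all tested was 4 without a filter, 1 with the acinar covariate and 1 with limma-voom, against 2 in the main comparison; with 1 library left out it ran from 1 to 5. Median-ratio scaling turned 3 differences above 0: Cdkn2c 0.0117, Mcm2 0.0137 and Rrm2 0.0227. The acinar covariate turned the sign of 8: Ccnd1 0.13, Cdk4 0.0055, E2f1 0.13, Cdkn1a -0.26, Mcm2 0.25, Mcm4 0.0405, Mcm5 0.29 and Rrm2 0.0791. With 1 library left out the ranges that cross 0 were -0.18 to 0.11 for E2f1, -0.0631 to 0.40 for Cdkn1a, -0.13 to 0.0529 for Cdkn2c, -0.14 to 0.10 for Mcm2, -0.0929 to 0.0535 for Mcm4, -0.16 to 0.10 for Mcm5 and -0.0379 to 0.0368 for Rrm2. The causes were not tested. Acinar markers were higher on average in Ucn3 null islets, so the fit with that covariate cannot fully separate acinar content from genotype. Mcm5, near 1 RPKM, fell below the filter in 4 of these fits and has no value there. No paired analysis was possible because the labels give animal numbers that match no null mouse with a wild-type one. Genes under 1 RPKM rest on few reads, down to 5 in a library, which limits what a difference in them can show.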

Other observations

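Some levels held a fixed order in every library although the animals differed. Cdk4 exceeded Cdk6 by 50.7, 59.4 and 69.5 times in Ucn3 null islets, against 48.8, 59.6 and 64.9 times in wild-type islets, both in RPKM. Ccnd2 exceeded Ccnd1 by 3.27, 2.68 and 2.43 times in Ucn3 null islets, against 3.41, 2.08 and 2.54 times in wild-type islets. Cdkn1b exceeded Cdkn1a by 1.36, 2.21 and 2.44 times in Ucn3 null islets, against 1.61, 2.76 and 3.87 times in wild-type islets. The smallest ratio of each genotype was in the animal with the highest Cdkn1a, which follows in part from Cdkn1a being the divisor. Cdkn2a has 2 transcript rows, and the row not used above (NM_001040654) stood at 0.204, 0.269 and 0.380 RPKM in Ucn3 null islets, against 0.221, 0.464 and 0.146 RPKM in wild-type islets, so both rows peaked in wild type replicate 2.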
